A study of Mus musculus with 50 samples.

Results

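The genes described here are 8 members of the AKT, GSK3 and mTOR signalling pathway, namely Akt1, Akt2, Gsk3a, Gsk3b, Mtor, Rptor, Rictor and Tsc2. They were taken by gene symbol from 24552 genes counted in each library. The set was selected on measured values of these data, because Akt1 and Akt2 tended to be lower in D1-IP samples of susceptible mice. All 8 genes were present in both count tables, and all 8 passed the filter on low counts in every comparison.

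AKT kinases act downstream of PI3 kinase and are turned on at the membrane, where PDK1 phosphorylates their activation loop and mTOR complex 2 phosphorylates their C-terminal tail. Active AKT phosphorylates and inhibits the GSK3 kinases, and it inhibits the TSC complex, whose subunit tuberin is made from Tsc2. TSC restrains Rheb, the activator of mTOR complex 1. Mtor encodes the kinase shared by both complexes, Rptor the raptor subunit that defines mTORC1, and Rictor the subunit that defines mTORC2. In the striatum, dopamine D2 receptors can also signal through beta-arrestin 2 and PP2A to AKT and GSK3. This signalling runs largely through phosphorylation, which RNA counts do not measure.

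All mice were C57BL/6 and carried RiboTag (RT), a floxed Rpl22 allele that puts an HA tag on ribosomes wherever Cre is active. The lines were RT; D1-Cre, for D1 receptor neurons, and RT; D2-Cre, for D2 receptor neurons, so that HA immunoprecipitation (IP) from nucleus accumbens (NAc) enriched RNA bound to ribosomes of D1- or D2-expressing medium spiny neurons (MSNs), and the input was RNA of the whole punch. Mice of 8 to 12 weeks were undefeated controls (Con), or had been defeated by a CD1 aggressor over as many as 10 days, for 10 min a day by the labels and a shorter time by the study's methods, and were sorted by social interaction into resilient (Res) and susceptible (Sus). Each library pooled 2 mice. There were 4 D1 Con, 4 D1 Res and 5 D1 Sus IPs, 5 D2 IPs in each of the 3 groups, and 3 inputs for each line and group. A further 4 D1 IPs, of undefeated male RT; Sirt1-floxed; D1-Cre mice with no age given, are called the libraries labelled Sirt1-KO.

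Counts on genes ran from 21591075 to 31009626 per IP, from 18384265 to 28179940 per input. The libraries labelled Sirt1-KO held between 22174187 and 31785984. The IPs carried the markers of their line. Summed over Drd1, Pdyn, Tac1 and Chrm4, the D1-MSN level was 1052 to 1483 CPM (TMM-scaled counts per 1000000 counts on genes) in D1 IPs and 381 to 613 CPM in D2 IPs. The D2-MSN sum over Drd2, Adora2a, Gpr6 and Penk was 5457 to 7722 CPM in D2 IPs, 1969 to 3314 CPM in D1 IPs and 837 to 1420 CPM in inputs, so that every D1 IP was also above every input. The 6 astrocyte markers summed to 36.5 to 91.0 CPM in IPs against 845 to 1074 CPM in inputs, and the 6 oligodendrocyte markers to 386 to 746 CPM against 3736 to 5765 CPM. Reads that overlapped no annotated exon amounted to 10.4 to 17.6% of counted reads in IPs and 23.4 to 27.2% in inputs.

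The members lie on 7 chromosomes of GRCm38 (mm10), with Akt2 and Gsk3a both on chromosome 7. By the GENCODE vM21 annotation Akt1 spans 112653821 to 112674884 of chromosome 12 on the minus strand, Akt2 27591552 to 27640826 of chromosome 7 on the plus strand, Gsk3a 25228258 to 25237851 of chromosome 7 on the minus strand and Gsk3b 38089001 to 38246084 of chromosome 16 on the plus strand. Mtor spans 148448611 to 148557683 of chromosome 4, Rptor 119602905 to 119899576 of chromosome 11 and Rictor 6708379 to 6800401 of chromosome 15, all on the plus strand, and Tsc2 spans 24595816 to 24632630 of chromosome 17 on the minus strand. For Gsk3a, 28.3% of the exon bases are also exon of the antisense gene 9130221H12Rik, and for Tsc2, 7.20% are also exon of Pkd1 on the other strand. The library kit keeps strand, but whether the counting used it is not given in the sources used here, so Gsk3a and Tsc2 counts may have lost reads in these stretches or share them with the partner.

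The sequences below show where AKT meets its activators and GSK3, the link that ties the members into a pathway. They are coding stretches of the GENCODE vM21 reference transcripts, written 5′ to 3′, with the codon of the phosphorylated residue in capitals and the residue number counted from the start methionine.
Gsk3a serine 21, in exon 1, chr7:25237586-25237612, minus strand: gcgcggaccagcTCGttcgcggagcca
Gsk3b serine 9, in exon 1, chr16:38090538-38090564, plus strand: ccgagaaccaccTCCtttgcggagagc
Akt1 threonine 308, in exon 10, chr12:112657089-112657115, minus strand: gccactatgaagACAttctgcggaacg
Akt2 threonine 309, in exon 10, chr7:27636120-27636146, plus strand: gccaccatgaaaACCttctgtggtacc
Akt1 serine 473, in exon 14, chr12:112654710-112654736, minus strand: ttcccccagttcTCCtactcagccagt
Akt2 serine 474, in exon 14, chr7:27638103-27638129, plus strand: ttcccccagttcTCCtactcagccagc

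The Gsk3a and Gsk3b codons are the serines by which AKT inhibits each kinase, the threonines are the activation loop sites and the tail serines are the sites of mTORC2, the complex built on Rictor. The paralogs differ enough for reads to be told apart over most of their length. Akt1 and Akt2 coding sequences were 77.5% identical over 1437 aligned bases, and the longest run of identical bases shared by any pair of their transcripts was 32 bases. Gsk3a and Gsk3b were 72.1% identical over 1256 aligned coding bases, with a longest shared run of 17 bases.

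All 8 genes were well covered in every library, from 1014 counts for Rictor at the lowest to 12087 counts for Gsk3b at the highest. Levels between genes were compared as CPM per kb of exon, over the union of annotated exons. Across the 28 IPs, Gsk3a had the highest level at 68.8 ± 3.41 CPM per kb (SD, n = 28), and its lowest library, at 62.2, was above every library of every other member. Gsk3b followed at 38.0 ± 1.99 and Akt1 at 34.8 ± 1.87, and their ranges of 33.2 to 41.4 and 32.2 to 39.3 overlapped. Akt1 was well above Akt2, at 13.1 ± 1.02 CPM per kb.

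Tsc2 at 14.0 ± 0.633, Akt2, and Mtor at 12.1 ± 1.01 CPM per kb formed a middle group whose ranges overlapped. Rptor was lower, at 7.95 ± 0.536 with a range of 7.07 to 9.31, and Rictor was lowest, at 3.34 ± 0.272 with a range of 2.70 to 3.82. The ranges of Rptor and Rictor did not touch each other or those of the genes above them. In the 18 inputs Gsk3a was again highest, at 63.1 ± 3.77 CPM per kb (SD, n = 18), and Rptor and Rictor were again the lowest, but there they were near each other, at 5.86 ± 0.374 and 5.16 ± 0.232, with overlapping ranges of 5.33 to 6.66 and 4.86 to 5.65. Dividing by the longest annotated transcript instead put Akt1 above Gsk3b in the IPs, at 52.9 against 45.0 CPM per kb, and Rptor above Mtor, at 16.2 against 14.3. By that length Rptor and Rictor did not overlap in inputs either, at 10.9 to 13.6 and 8.84 to 10.3 CPM per kb.

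**Figure D1:**
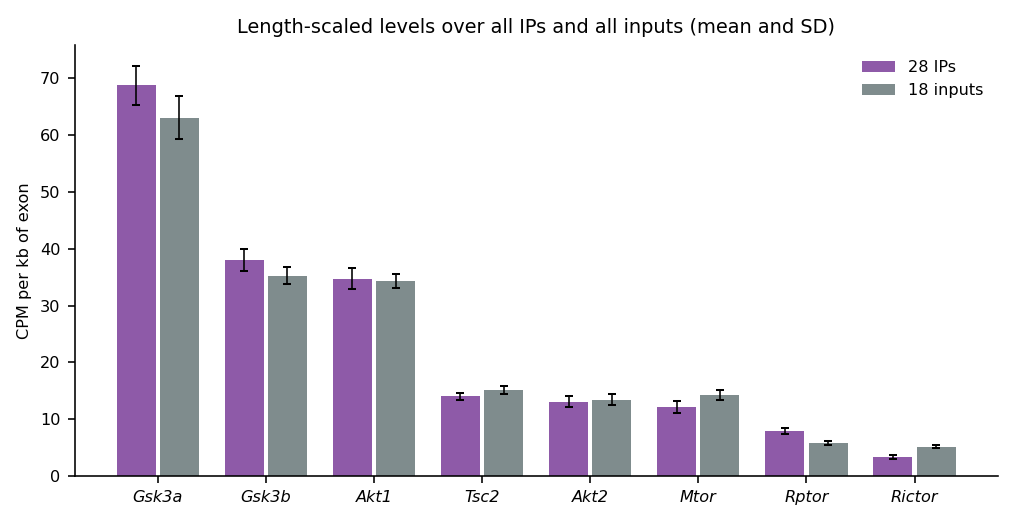
Levels per length of the 8 genes. Bars give the mean CPM per kb of exon over 28 IPs (purple) or 18 inputs (grey) and error bars the SD over libraries. Gsk3a is highest at 68.8 CPM per kb in IPs. By the union of exons, Rptor and Rictor are close to each other in inputs and stand apart in IPs, at 7.95 and 3.34.

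The comparison of control IPs with control inputs asked how the ribosome-bound RNA of MSNs differed from the RNA of the whole NAc. Rptor was higher and Rictor lower in the IPs of both lines. The 2 GSK3 genes and Akt1 were also higher in the IPs of both lines, by less. In this comparison CPM were scaled over the 15 control libraries together, so they differ slightly from the CPM used among IPs. Fewer cells of a type and less RNA per cell cannot be told apart in such bulk samples.

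Rptor was at 120.5, 107.5, 121.7 and 113.0 CPM in D1 Con IPs 1 to 4, against 69.2, 73.3 and 72.6 CPM in the D1 Con inputs. In the D2 line it was at 100.2, 113.5, 113.5, 111.6 and 103.1 CPM in IPs 1 to 5 and at 76.6, 69.0 and 74.6 CPM in inputs. Every IP was above every input of its line. The log2 fold change of Rptor, IP over input, was 0.69 (SE 0.06, adjusted p = 1.92e-08 by edgeR's quasi-likelihood test with Benjamini-Hochberg adjustment) for D1 and 0.56 (SE 0.06, adjusted p = 1.81e-07 by the same test) for D2.

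Rictor went the other way. It was at 52.8, 55.2, 60.8 and 53.1 CPM in D1 Con IPs 1 to 4 and at 83.3, 78.0 and 85.3 CPM in D1 Con inputs. In the D2 line, its 5 IPs were at 48.1, 60.4, 65.8, 63.9 and 55.4 CPM and its 3 inputs at 78.5, 82.1 and 80.8 CPM. Again the groups did not overlap, with all IPs below all inputs. The log2 fold change of Rictor was -0.57 (SE 0.09, adjusted p = 9.23e-06, edgeR) for D1 and -0.45 (SE 0.08, adjusted p = 6.97e-05, edgeR) for D2.

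Mtor, the kinase of both complexes, moved little. Its log2 fold change was -0.17 in D1 (SE 0.06, adjusted p = 0.00994, edgeR), from 132.2, 132.1 and 141.0 CPM in inputs to 127.8, 115.2, 123.3 and 112.5 CPM in IPs. Without D1 Con input 3 that value was -0.12 with an adjusted p of 0.132 (edgeR), the highest among its 13 alternatives, the lowest being 0.000331. In D2 the value for Mtor was -0.02 (95% interval -0.12 to 0.09 from the SE, adjusted p = 0.799, edgeR). Tsc2 passed the test in neither line, at -0.01 (adjusted p = 0.919, edgeR) for D1 and 0.10 (adjusted p = 0.0854, edgeR) for D2.

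Gsk3a was at 219.3, 228.8, 206.2 and 216.2 CPM in D1 Con IPs and at 170.6, 172.8 and 169.0 CPM in the inputs. In the D2 line Gsk3a ranged from 197.0 to 218.5 CPM in IPs and from 163.9 to 185.1 CPM in inputs. All IPs were above all inputs of their line, with log2 fold changes of 0.35 (adjusted p = 2.11e-05, edgeR) and 0.24 (adjusted p = 0.000568, edgeR). Gsk3b rose by nearly as much, by 0.30 (adjusted p = 0.000248, edgeR) and 0.25 (adjusted p = 0.000896, edgeR), with IPs at 383.6 to 414.0 CPM in D1 and 343.8 to 410.6 CPM in D2, and inputs at 310.9 to 335.3 CPM and 320.7 to 327.1 CPM.

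Akt1 was at 156.8, 158.1, 143.3 and 164.3 CPM in D1 Con IPs and at 137.7, 135.1 and 119.7 CPM in the inputs, a log2 fold change of 0.25 (adjusted p = 0.00127, edgeR). In D2 the log2 fold change of Akt1 was 0.17 (adjusted p = 0.0173, edgeR), with IPs at 139.1 to 149.5 CPM and inputs at 127.6 to 137.3 CPM. This D2 call was lost without D2 Con input 2 (log2 fold change 0.15, adjusted p = 0.0632, edgeR) or without D2 Con input 3 (0.15, adjusted p = 0.0617, edgeR), and fell to 0.08 (adjusted p = 0.236, edgeR) when genes averaging under 50 counts were dropped; over its 14 alternatives the adjusted p ran from 0.00735 to 0.236. Akt2 passed in D2, at 0.24 (adjusted p = 0.002, edgeR), where all 5 IPs, at 94.5 to 108.1 CPM, were above the 3 inputs at 84.0 to 89.0 CPM. In D1 Akt2 stood at 0.06 (95% interval -0.07 to 0.19, adjusted p = 0.41, edgeR), with IPs at 91.9 to 104.0 CPM and inputs at 89.5 to 98.3 CPM.

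In all, 6 of 8 members passed in each line, 4 higher and 2 lower in D1 IPs and 5 higher and 1 lower in D2 IPs. Of all genes tested, 70.4% passed in D1 and 71.7% in D2, so that 6 of 8 was near the background. The median log2 fold change of the members was 0.16 in D1 and 0.20 in D2, beside -0.02 and -0.05 over all 14922 genes. The gap depended on the filter. In D1, when genes averaging under 50 counts were dropped, the medians were 0.07 for the members and 0.02 for all genes. The enrichment itself was not shown to differ between the lines for any member. The difference of the log2 fold changes, D1 minus D2, was largest for Akt2, at -0.18 (SE 0.09, adjusted p = 0.274, edgeR interaction term), and Mtor, at -0.16 (SE 0.08, adjusted p = 0.274 by the same term). The lower share of reads outside exons and the lower glial marker sums moved with the IPs in the same libraries. Other marker sums, scaled within IPs or within inputs, went by line. Cortical excitatory neuron markers (Slc17a7, Neurod6) were at 313 to 873 CPM in D1 Con IPs and 197 to 645 CPM in inputs. In D2 Con they were at 71.4 to 217 CPM and 333 to 759 CPM. Cholinergic interneuron markers (Chat, Slc5a7, Slc18a3) were at 4.50 to 6.58 CPM in D1 Con IPs and 47.7 to 69.8 CPM in inputs. In D2 Con these were at 49.8 to 82.6 CPM and 41.8 to 68.3 CPM. The part of all these in the differences was not tested.

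**Figure D2:**
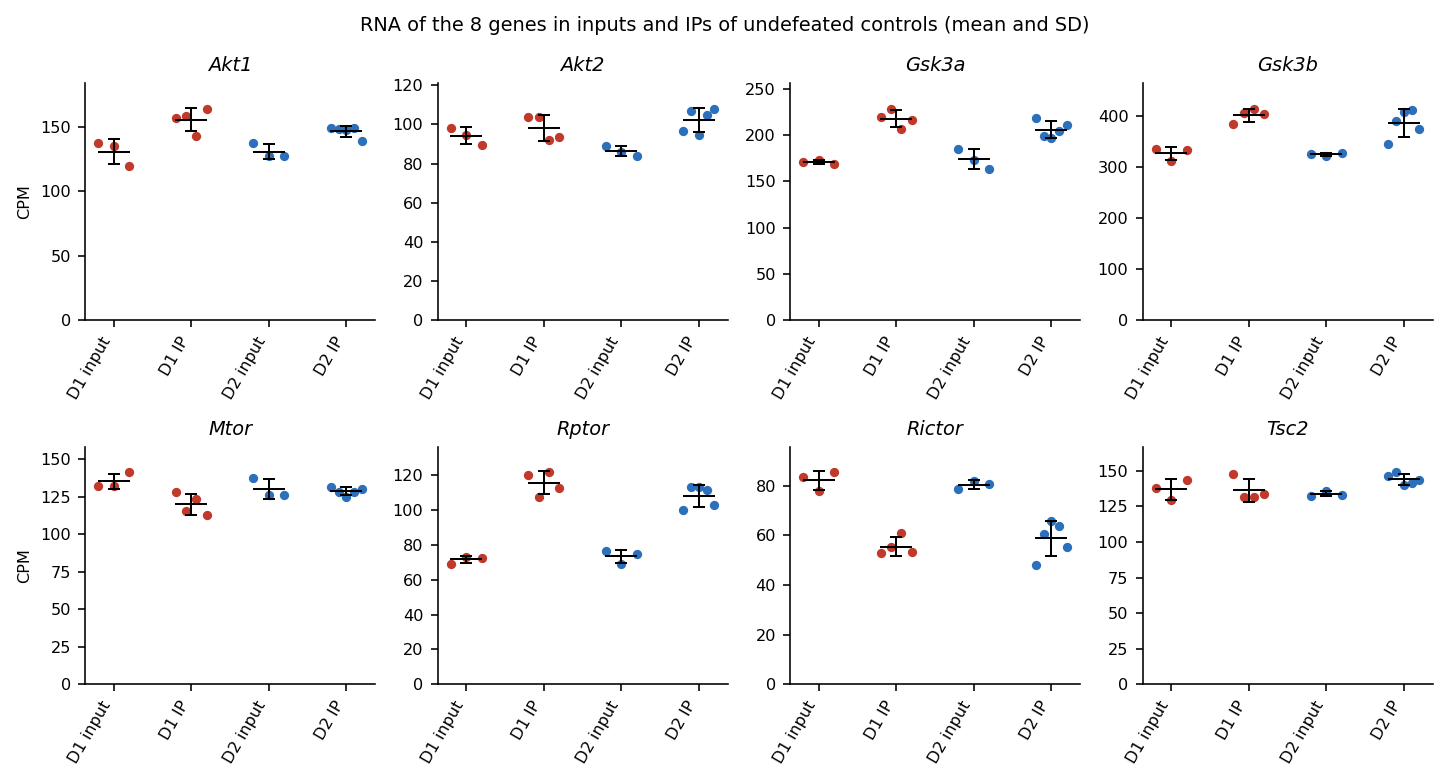
CPM of the 8 genes in inputs and IPs of undefeated controls, D1 line in red and D2 line in blue. Each point is a library of 2 pooled mice, and the bar and whiskers give the mean and SD. Rptor points of the IPs lie above all inputs and Rictor points below them in both lines.

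Of 80 further genes of the pathway, listed by role from general knowledge, 39 were higher and 20 lower in D1 IPs than inputs, and 37 were higher and 21 lower in D2 IPs, near the background of 70.4% and 71.7% of all genes called in either direction. Of those that were higher, the smallest p went to Ppp2r1a, the scaffold subunit of PP2A, with a log2 fold change of 1.24 in D1 and 1.17 in D2 (adjusted p = 1.26e-11 and 1.42e-11, edgeR). Rraga, a Rag GTPase that brings mTORC1 to the lysosome, was higher by 0.94 and 1.00. The third smallest p in D1 was that of Pik3c3, the class III PI3 kinase, higher by 0.82, and in D2 that of Foxo1, a transcription factor that AKT keeps out of the nucleus, higher by 1.39.

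Lower in the IPs of both lines were Rps6kb2, an S6 kinase, by -2.30 in D1 and -1.90 in D2, and Prr5l, an mTORC2 partner, by -2.98 and -2.69. Prr5l averaged 1.58 ± 0.36 CPM over the 4 D1 IPs and 12.5 ± 2.30 CPM over the 3 D1 inputs (SD), so its IP level rested on few reads. Inppl1, a PIP3 phosphatase, was lower by -1.26 in D1, and Tfeb, a transcription factor held back by mTORC1, by -1.72 in D2.

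Next, D1 and D2 IPs were compared, to see whether the pathway differed between the MSN subtypes. Among controls, none of the 8 members passed the test for a difference. The count was 0 of 8 at an adjusted p under 0.05 by edgeR, 0 at an unadjusted p under 0.05 and 0 by DESeq2, while 14% of all 14224 genes passed. The log2 differences, D1 over D2, ran from -0.11 for Mtor (95% interval -0.26 to 0.05) to 0.09 for Rptor (95% interval -0.02 to 0.19).

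Among resilient mice, Rptor passed, as 1 of 8 members beside 17.5% of all genes. It was at 125.5, 110.7, 109.2 and 111.0 CPM in D1 Res 1 to 4 and at 97.1, 101.5, 100.9, 100.4 and 102.0 CPM in D2 Res 1 to 5. The groups did not overlap, and D1 Res 1 was far above the other 3. The log2 difference of Rptor was 0.18 (SE 0.05, adjusted p = 0.0168, edgeR), and without D1 Res 1 it was 0.14 with an adjusted p of 0.103 (edgeR), the highest of 15 alternatives, the lowest being 0.00796. Akt1 was higher in D1 Res by 0.10 at an unadjusted p of 0.0318 from the edgeR fit, with an adjusted p of 0.122, and passed at an adjusted p of 0.0282 (log2 difference 0.14, edgeR) without D2 Res 1, the library with the highest Akt1 of its group at 156.4 CPM. Over all alternatives of that Akt1 difference the adjusted p ran from 0.0282 to 0.348. The set was selected on low Akt1 and Akt2 in D1 Sus, for which D1 Res is a reference. The Akt1 values here are therefore not independent of the selection, and no conclusion is drawn from them.

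The other pathway genes were compared in the same way. Of 79 pathway genes tested, 4 were higher and 3 lower in D1 Con than D2 Con IPs, and 7 were higher and 4 lower in D1 Res than D2 Res IPs. Beside 14% and 17.5% of all genes, neither count was above the background. Foxo1 had the smallest adjusted p among controls. Its mean was 198 ± 24.3 CPM over 4 D1 Con IPs and 269 ± 11.8 CPM over 5 D2 Con IPs (SD), a log2 difference of -0.44 (adjusted p = 0.000372, edgeR), and at -0.45 (adjusted p = 0.000256, edgeR) among resilient mice.

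Crmp1, a microtubule-binding protein phosphorylated by GSK3, was higher in D1, by 0.20 (adjusted p = 0.00408, edgeR) among controls and 0.33 (adjusted p = 1.50e-05, edgeR) among resilient mice. Prkaa2, a catalytic subunit of AMPK, was higher in D1 by 0.33 and 0.29. Ppp2r2b, a regulatory subunit of PP2A, was higher in D1 Con by 0.22, and Irs1, an insulin receptor adaptor, in D1 Res by 0.50. Mapkap1, an mTORC2 subunit, was lower in D1 Con by -0.17 and Rragd, a Rag GTPase, by -0.19, and in D1 Res Rps6kb2 was lower by -0.57 and Pik3r1, a PI3K regulatory subunit, by -0.18. Several of these calls rested on single libraries (adjusted p-values from edgeR). Mapkap1 was not called without D1 Con replicate 3 (adjusted p = 0.129) or 4 (adjusted p = 0.0877), or without D2 Con replicate 1 (adjusted p = 0.0556), 2 (adjusted p = 0.0532) or 5 (adjusted p = 0.0763). Rragd was not called without D1 Con replicate 2 (adjusted p = 0.123), 3 (adjusted p = 0.0898) or 4 (adjusted p = 0.0723), or without D2 Con replicate 4 (adjusted p = 0.0846) or 5 (adjusted p = 0.107). Without D1 Con replicate 2, Ppp2r2b (adjusted p = 0.0689) and Prkaa2 (adjusted p = 0.0624) lost their calls among controls. Without D1 Res replicate 2, Prkaa2 (adjusted p = 0.0627), Pik3r1 (adjusted p = 0.0669) and Rps6kb2 (adjusted p = 0.0783) lost theirs among resilient mice, as did Prkaa2 without D1 Res replicate 3 (adjusted p = 0.0588) and Pik3r1 without D1 Res replicate 1 (adjusted p = 0.0599). The summed cortical excitatory neuron markers Slc17a7 and Neurod6 moved with the line, at 313 to 1121 CPM in D1 IPs and 13.6 to 247 CPM in D2 IPs. The summed cholinergic interneuron markers Chat, Slc5a7 and Slc18a3 went the other way, at 4.50 to 20.8 CPM and 49.8 to 107 CPM. Reads outside exons moved with the line too, at 10.86 to 11.69% in D1 Con and 11.71 to 16.80% in D2 Con IPs. Among resilient mice they were at 10.39 to 11.60% in D1 and 11.83 to 17.09% in D2 IPs. The part of all these in the differences between D1 and D2 IPs was not tested.

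In D1 IPs of susceptible mice, Akt1 and Akt2 were the members on which the set was selected, so their values there are a description, with no test. Akt1 was at 140.3, 138.8, 138.2, 137.7 and 135.6 CPM in D1 Sus 1 to 5, at 148.8, 150.5, 136.2 and 156.0 CPM in D1 Con 1 to 4 and at 161.1, 146.6, 153.3 and 150.0 CPM in D1 Res 1 to 4. All 5 susceptible libraries were below all 4 resilient ones and below 3 of 4 controls, D1 Con 3 being the exception. The log2 difference of Akt1 was -0.10 (SE 0.04) from D1 Con and -0.15 (SE 0.04) from D1 Res.

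Akt2 was at 83.7, 86.5, 85.4, 81.8 and 84.4 CPM in D1 Sus 1 to 5. The controls were at 98.7, 98.7, 87.4 and 88.7 CPM and the resilient libraries at 93.9, 100.2, 101.7 and 94.2 CPM. The susceptible libraries lay below all libraries of both other groups, the nearest being D1 Con 3. The log2 difference of Akt2 was -0.15 (SE 0.06) from D1 Con and -0.21 (SE 0.06) from D1 Res. With each library left out in turn it ran from -0.18 to -0.11 from D1 Con and from -0.22 to -0.19 from D1 Res, and for Akt1 from -0.14 to -0.07 and from -0.16 to -0.12. Since the set was selected on these values, the SEs and ranges only describe their spread and lend no support to a difference.

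Gsk3a stood at -0.07 (SE 0.05) from D1 Con and -0.08 (SE 0.05) from D1 Res, and its susceptible libraries, at 187.7 to 210.8 CPM, overlapped both groups. Gsk3b, at -0.01 and 0.05, Rptor, at 0.03 and -0.03, and Tsc2, at 0.05 and -0.03, overlapped as well. Mtor was 0.14 (SE 0.08) above D1 Con and 0.03 above D1 Res, and its 5 susceptible libraries fell at 136.8, 136.6, 108.9, 112.3 and 131.6 CPM, wider than the controls at 106.9 to 121.3 CPM. Rictor stood at 0.11 (SE 0.08) from D1 Con and 0.03 from D1 Res.

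Over all 14224 genes the median log2 difference was 0.00 in both contrasts, and over the 8 members 0.01 and -0.03. In the same libraries, the astrocyte marker sum was 46.1 to 91.0 CPM in D1 Sus, 45.5 to 75.4 CPM in D1 Con and 49.7 to 82.4 CPM in D1 Res, and the D1-MSN marker sum was 1052 to 1339, 1199 to 1483 and 1149 to 1315 CPM, so the groups overlapped in both. In that order the medians were 80.8, 53.7 and 64.7 CPM for astrocyte markers and 1180.5, 1250.5 and 1234.4 CPM for D1-MSN markers. The cortical excitatory neuron sum was 505 to 1121.5 CPM in D1 Sus, 313 to 873 CPM in D1 Con and 381 to 708 CPM in D1 Res. In D1 Sus, D1 Con and D1 Res, the D2-MSN sum was 1969 to 2484, 2257 to 3314 and 2246 to 2664 CPM. The sum of the MSN gene Ppp1r1b and the neuron gene Rbfox3 was 1703 to 2121, 1936 to 2567 and 1885 to 2216 CPM. The share of reads outside exons was 11.8 ± 1.39% (SD, n = 5) in D1 Sus and 11.3 ± 0.343% (n = 4) in D1 Con. It ran from 10.4 to 13.9% in D1 Sus, highest in D1 Sus 5, against 10.9 to 11.7% in D1 Con and 10.4 to 11.6% in D1 Res. The part of these in the Akt1 and Akt2 values was not tested.

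The other comparisons between stress groups did not themselves choose the genes. However, D1 Res against D1 Con shares its libraries with the D1 Sus comparisons, so its Akt1 and Akt2 values are not independent of the choice. D1 Res was compared with D1 Con, and in the D2 line all 3 groups with each other. None of the 8 members passed in any of the 4 comparisons, by edgeR at an adjusted p under 0.05, at an unadjusted p under 0.05, or by DESeq2. Of all genes, 0.00703% (1 gene) passed for D1 Res against D1 Con and 0% in the D2 comparisons, and at an unadjusted p under 0.05 the shares were 2.11% for D1 Res against D1 Con, 3.68% for D2 Sus against D2 Con, 3.02% for D2 Res against D2 Con and 1.66% for D2 Sus against D2 Res.

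The 32 log2 differences of the members ran from -0.06 to 0.11, and their 95% intervals reached from -0.17 to 0.27. In D2 Sus, Akt1 was at 135.0, 143.1, 139.4, 133.9 and 132.0 CPM, against 141.7, 141.8, 140.4, 142.5 and 133.4 CPM in D2 Con, which overlapped, with a log2 difference of -0.03 (95% interval -0.12 to 0.05, adjusted p = 0.999, edgeR). Akt2 was at 78.1, 99.8, 94.7, 92.5 and 105.2 CPM in D2 Sus and at 91.8, 102.0, 89.8, 99.9 and 103.6 CPM in D2 Con. Only D2 Sus 1 was outside the range of the controls on the low side, and the difference of Akt2 was -0.05 (95% interval -0.17 to 0.07, adjusted p = 0.999, edgeR).

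In D1 Res, 7 of 8 members were on the higher side of D1 Con and 1, Gsk3b, on the lower, with none past the test. The largest was Mtor, at 144.0, 117.6, 109.2 and 121.3 CPM in D1 Res against 121.3, 109.7, 117.2 and 106.9 CPM in D1 Con, a log2 difference of 0.11 (95% interval -0.05 to 0.27, adjusted p = 1, edgeR). D1 Res 1 was above the rest for Mtor, as for Rptor and Tsc2. The difference between the lines in the response of Res against Con was tested by an interaction term and passed for 0 of 8 members (lowest unadjusted p 0.0904, for Tsc2, adjusted p = 1, edgeR). Of the 79 pathway genes, 0 passed in these 4 comparisons by edgeR; at an unadjusted p under 0.05, 2 did, both for D2 Res against D2 Con.

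**Figure D3:**
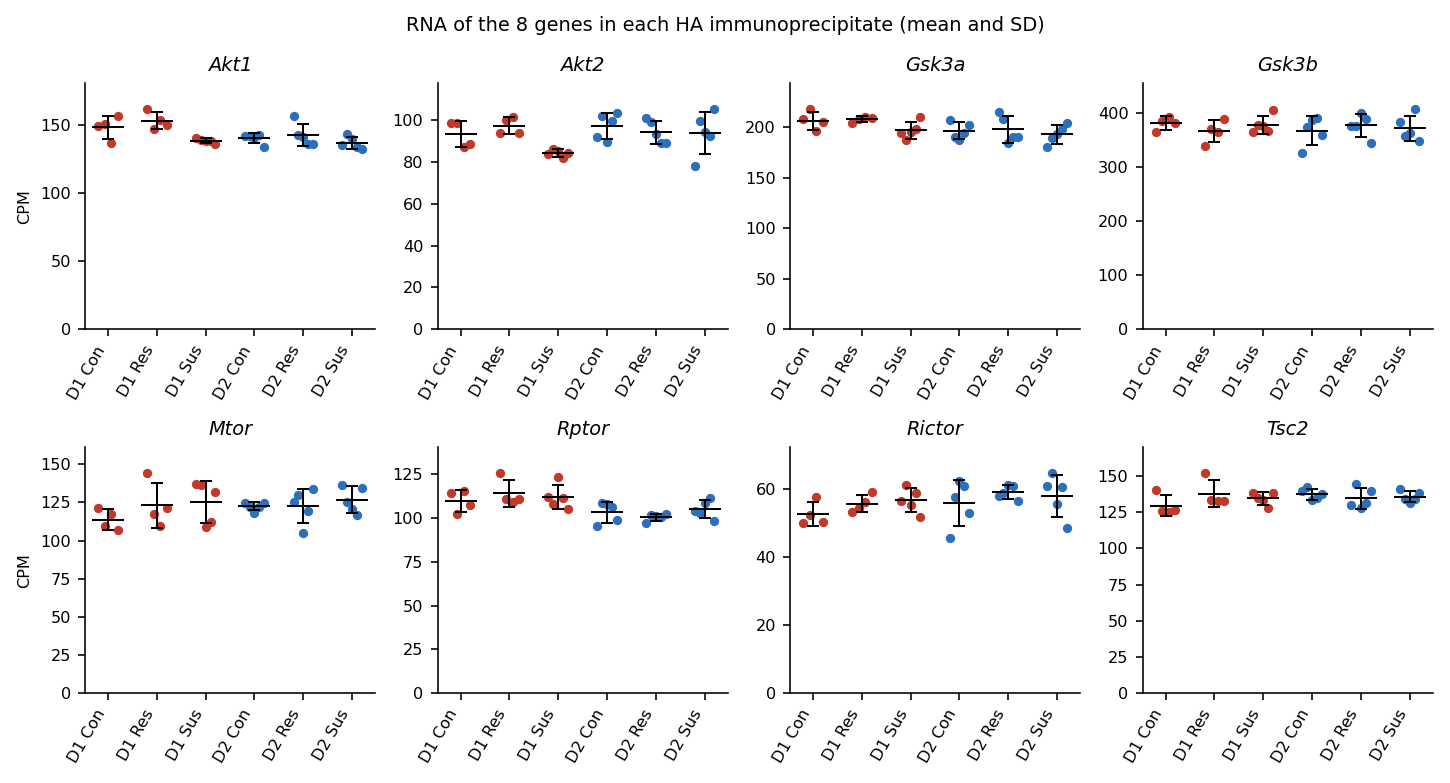
CPM of the 8 genes in each IP library, D1 line in red and D2 line in blue, with mean and SD. D1 Sus points of Akt2 lie between 81.8 and 86.5 CPM, below all D1 Con and D1 Res points, while D2 Sus points spread from 78.1 to 105.2 CPM.

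The inputs served to look for stress differences in the whole tissue. Sus, Res and Con inputs were compared over both lines together, with line as a term. By edgeR, 0 of 8 members passed in each comparison, as with DESeq2, and 0% of all 15063 genes passed. At an unadjusted p under 0.05 the shares of all genes were 4.51% for Sus against Con, 3.25% for Res against Con and 5.47% for Sus against Res, and the members at that level were 0, 0 and 1.

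That member was Gsk3a. It was at 165.6, 166.3 and 183.1 CPM in D1 Sus inputs and 164.3, 174.3 and 201.3 CPM in D2 Sus inputs, against 183.8, 186.6 and 198.2 CPM and 185.2, 189.0 and 191.0 CPM in Res inputs of the same lines. D2 Sus input 3 was above every Res input, and the other 5 were below all of them. The log2 difference of Gsk3a was -0.10 (95% interval -0.19 to -0.01) at an unadjusted p of 0.0349, and it did not pass adjustment (adjusted p = 0.903, edgeR).

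Akt1 and Akt2 in inputs differed between Sus and Con by -0.01 (95% interval -0.08 to 0.06) and -0.05 (95% interval -0.15 to 0.06), each with an adjusted p over 0.05 (0.992 and 0.979, edgeR). Akt1 stood at 138.8 ± 3.27 CPM (SD, n = 6) in Sus inputs and 139.7 ± 7.46 CPM (n = 6) in Con inputs. Akt2 stood at 93.2 ± 8.22 CPM in Sus inputs and 96.4 ± 5.29 CPM in Con inputs. The 24 values of the members over the 3 comparisons ran from -0.10 to 0.08.

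Between the lines, D1 inputs against D2 inputs over all stress groups, 0 of 8 members passed by edgeR and by DESeq2, beside 0.0199% (3 genes) of all genes. At an unadjusted p under 0.05 there was 1 member, Akt2, higher in D1 inputs by 0.11 (95% interval 0.02 to 0.19, unadjusted p = 0.0279 and adjusted p = 0.937, edgeR). Akt2 was at 99.4 ± 4.72 CPM (SD, n = 9) in D1 inputs and 92.3 ± 7.61 CPM (n = 9) in D2 inputs.

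**Figure D4:**
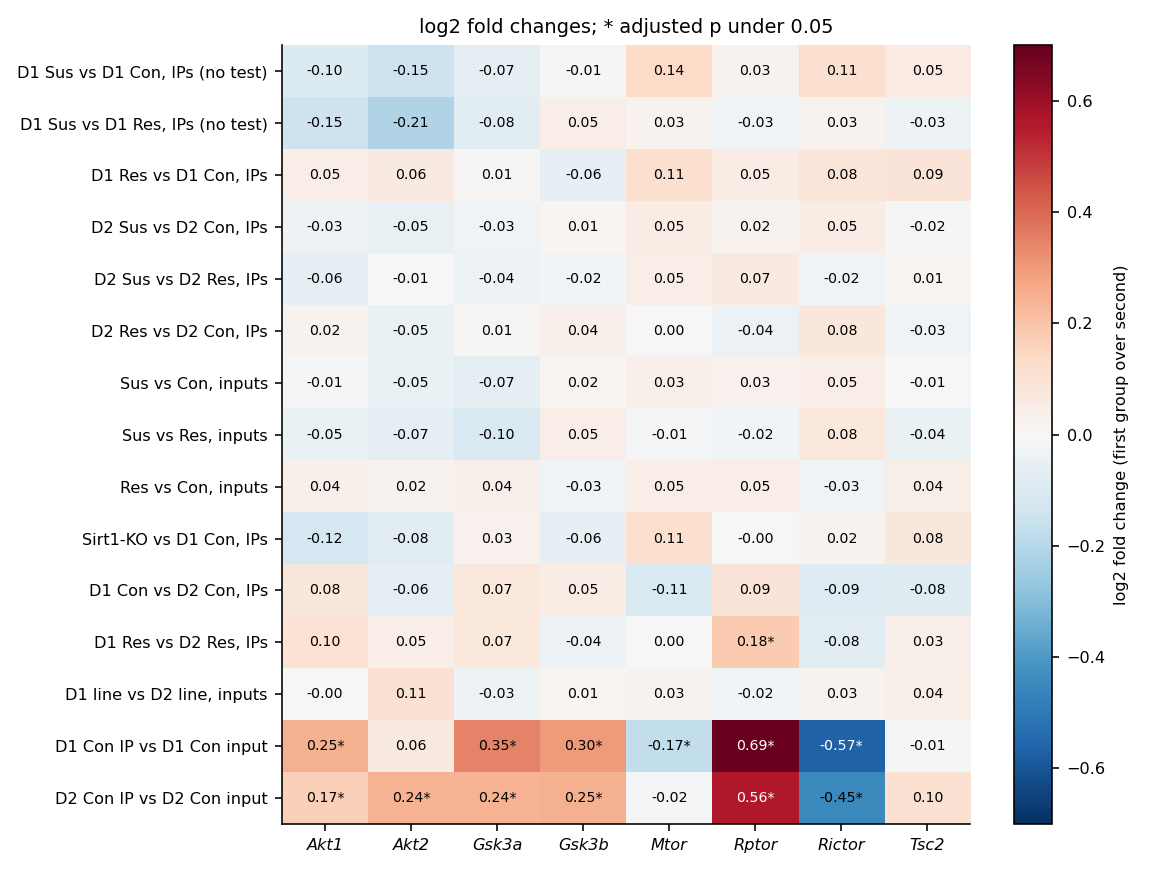
log2 fold changes of the 8 genes in all 15 comparisons, the first group over the second. Colour gives the sign and size, and an asterisk an adjusted p under 0.05 by edgeR. The D1 Sus comparisons carry no test since the genes were selected on them. All 13 asterisks but that of Rptor in resilient mice lie in the IP against input rows.

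The libraries labelled Sirt1-KO were compared with D1 Con IPs in the table that holds both. Sirt1, the targeted gene, was at 15.2, 16.2, 13.2 and 10.2 CPM in the libraries labelled Sirt1-KO 1, 3, 4 and 5, and at 13.1, 16.6, 14.8 and 14.4 CPM in D1 Con 1 to 4. The groups overlapped, so the gene-level count did not separate the genotypes. A count over the whole gene does not show whether a floxed exon was lost, since RNA without it can still be counted. The labels give no shared collection or sequencing date for the groups. Whether the groups were handled together is not known, and a part of batch in their differences was not tested.

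None of the 8 members passed, by edgeR (0 at an unadjusted p under 0.05) or by DESeq2, beside 1.66% of all 13626 genes. Akt1 was at 131.2, 128.2, 137.9 and 142.5 CPM in the libraries labelled Sirt1-KO and at 147.4, 149.6, 135.0 and 155.8 CPM in D1 Con. The groups overlapped through D1 Con 3, and the log2 difference of Akt1 was -0.12 (95% interval -0.24 to -0.01, adjusted p = 0.312, edgeR). That interval, a normal approximation, leaves out 0 although the edgeR test gave an unadjusted p of 0.0590, so it is too narrow here. Akt2 was at 87.1, 90.4, 86.2 and 88.4 CPM in the libraries labelled Sirt1-KO, within the range of the controls at 97.7, 98.1, 86.6 and 88.6 CPM but for the lowest, with a log2 difference of -0.08 (95% interval -0.19 to 0.04).

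Mtor, at 0.11, and Tsc2, at 0.08, stood on the higher side, and Gsk3a, Gsk3b, Rptor and Rictor lay between -0.06 and 0.03. The comparison uses the same D1 Con libraries as the stress comparisons, so values of both are given side by side only.

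Among 79 pathway genes, 1 passed, beside the 1.66% of all genes. Deptor, an inhibitor of mTOR that sits in both complexes, was at 14.5, 11.4, 15.4 and 12.3 CPM in the libraries labelled Sirt1-KO and at 23.1, 25.4, 23.1 and 25.6 CPM in D1 Con. The groups did not overlap, and the log2 difference was -0.86 (SE 0.10, adjusted p = 0.00386, edgeR). In the same libraries the D1-MSN marker sum was lower, at 896 to 1121 CPM against 1192 to 1468 CPM, and the cortical excitatory neuron sum was 707 to 1349.8 CPM against 310.2 to 868 CPM. Their part in the value of Deptor was not tested.

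Some pairs of members varied together across libraries of the same group, and most did not. Over 28 IPs, with each group's mean removed from log2 CPM, 4 of 28 pairs of members had Pearson's r over 0.5 or under -0.5. Mtor and Tsc2 had an r of 0.75 (Spearman's rho 0.73), and 0.67 without the 2 libraries farthest from the median of Mtor. Gsk3b and Rictor had 0.61, Gsk3a and Rictor -0.60, and Akt2 and Gsk3a 0.55. Without the 2 libraries farthest from the median of the first gene of each pair these were 0.48, -0.60 and 0.42, so that the first and the last no longer passed 0.5, while Akt1 and Akt2 had only 0.20. These points share libraries, depth and scaling, so the values are descriptions without a test.

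Of 14223 other genes in the IPs, those whose deviations were most like Akt1 were Gpx4 (r = 0.75), Snx21 (r = 0.73) and Ppp1r16a (r = 0.73), over 28 libraries. Without the 2 libraries farthest from the median of Akt1 these fell to 0.54, 0.54 and 0.69. Those most like Akt2 were Hrh3 (r = 0.83), Npas2 (r = 0.81) and Dhrs3 (r = 0.80), at 0.71, 0.69 and 0.69 without the 2 farthest libraries. The genes named for Akt1 and those named for Akt2 were different genes. Both sets were picked as the highest of 14223 values, without a test, so no conclusion is drawn from them.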

How the data were processed

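RNA was measured by RiboTag RNA-seq in 50 libraries, and groups follow the deposited labels. The values are raw counts per gene symbol, which the authors made by trimming with cutadapt, aligning to mm10 with STAR and counting with HTSeq; versions and the annotation used are not given in the sources used here. A further 2 columns with no matching sample, named D1 Con 5 and D1 Res 5, were not used. The table with the libraries labelled Sirt1-KO also holds the 4 D1 Con libraries, whose counts are the same in both tables. It lists 5 symbols 2 times, none of them a gene named here. Between 18.0 and 40.0% of counted reads per library were in the 5 entries that name no gene and were left out of library sizes. No pair of the 76 pairs of replicates agreed within sampling noise (lowest chi-square per gene 3.60). Replicates were separate pools of 2 mice. The study ran several defeat batches, and by its methods it split samples at random over sequencing sets. The labels assign neither to libraries, so no within-batch value could be had. Whether batch differed between groups is not known, and its part was not tested.

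Genes were kept by filterByExpr (minimum count 10, minimum total 15), scaled by TMM and tested with edgeR 4.0.16 (glmQLFit, glmQLFTest; R 4.3.3), with Benjamini-Hochberg adjustment over all genes and a threshold of 0.05. Stress and line comparisons used 1 model of the 28 IPs, or of the 18 inputs with line as a term; IP against input used the 15 control libraries, and Sirt1-KO the 8 of its table. Intervals of 95% come from the SE by a normal approximation, which is narrower than the edgeR test with few libraries, and, like all precision here, rest on the number of libraries. The alternatives were RLE scaling, other filters, DESeq2 1.42.0, a fold change over 1.5, other models, the replicate number as a block, and each library left out in turn. Scripts were tested on simulated counts with known changes.

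Same-numbered libraries of different groups did not all deviate together. The correlations of their deviations ran from -0.13 to 0.31 among stress groups of IPs (median 0.094, against -0.020 for other pairs). Among stress groups of inputs they ran from -0.36 to 0.40 (0.053 against -0.029). They ran from -0.14 to 0.24 between D1 and D2 IPs (0.100 against -0.023), and from -0.0082 to 0.077 between Sirt1-KO and D1 Con (0.069 against 0.0056). Between IP and input, which the labels' protocol takes from the same homogenate, they ran from -0.07 to 0.32 (-0.026 against -0.019). The median of same-numbered pairs was thus the higher one in all of these but IP and input. Replicate 5 had the highest share of reads outside exons in D1 Sus (13.9%), D2 Res (17.1%) and D2 Sus (17.6%) IPs. In D2 Con it was at 15.8%, below replicate 2 at 16.8%. The D1 Con and D1 Res IPs used here hold no replicate 5, so the groups are not balanced for it. Its part in the differences was not tested beyond leaving out each library. Positions, lengths and sequences come from GENCODE vM21. Named genes are the 8 members, Sirt1, up to 3 pathway genes in each direction per comparison by adjusted p, and the 3 genes most like Akt1 and Akt2. Some listed genes are not reported here and were left out of the lists' counts and sums. The members and lists were chosen with earlier results of these data known, and D1 Sus comparisons are therefore given without a test. Other comparisons of D1 Con or D1 Res share the reference libraries of that choice, so their Akt1 and Akt2 values are not independent of it.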

Additional observations from a re-analysis of the deposited data

Results flagged for a closer look

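In 63 groups of 4 or 5 libraries, each a gene within a group, 4 had a library far from the rest by Dixon's test; chance gives about 1 in 20. Tsc2 in D1 Res replicate 1 was at 151.8 CPM, with the others at 132.9 to 133.6 CPM. Rptor in the same library was at 125.5 CPM, with the others at 109.2 to 111.0 CPM. Tsc2 in D1 Con replicate 1 was at 140.6 CPM, with the others at 125.3 to 126.8 CPM. Akt1 in D2 Con replicate 5 was at 133.4 CPM, with the others at 140.4 to 142.5 CPM.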

How the results depend on the processing

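Of 13 called values of members, 170 of 177 alternative values remained called with the same sign; the 7 lost concern Akt1 (IP against input, D2), Mtor (IP against input, D1; also not called when all genes with at least 1 count were kept, adjusted p = 0.0597, or in a model of all 46 IPs and inputs, adjusted p = 0.0511, edgeR) and Rptor (D1 Res against D2 Res). Of 1503 alternative values of uncalled ones, 1 was called, and 77 of these and 2 values of Sirt1 changed sign without a call. Keeping all genes with at least 1 count gave 0.0018 for Akt1 (D1 line against D2 line), 0.020 for Mtor (D2 IP against input) and 0.020 for Tsc2 (D1 IP against input), a mean of at least 50 counts gave -0.024 for Akt2 (D1 IP against input), and the replicate block gave -0.0024 for Mtor (D2 Res against D2 Con), 0.0021 for Tsc2 (D1 IP against input) and 0.076 for Sirt1 (Sirt1-KO). With a library left out, the log2 fold changes that crossed 0 in IPs against inputs ran from -0.033 to 0.032 for Mtor (D2) and from -0.050 to 0.049 for Tsc2 (D1). Between lines they ran from -0.077 to 0.058 for Mtor and -0.013 to 0.060 for Tsc2 (Res IPs), and from -0.012 to 0.015 for Akt1, -0.0030 to 0.032 for Gsk3b and -0.046 to 0.0061 for Rptor (inputs). In D1 Res against D1 Con, Gsk3a ran from -0.016 to 0.037. In D2 Res against D2 Con, Akt1 ran from -0.011 to 0.044, Gsk3a from -0.021 to 0.035, Gsk3b from -0.0033 to 0.070 and Mtor from -0.027 to 0.054. In D2 Sus against D2 Con, Akt2 ran from -0.094 to 0.0098, Gsk3b from -0.025 to 0.039, Rictor from -0.012 to 0.11 and Rptor from -0.0053 to 0.047. In D2 Sus against D2 Res, Akt2 ran from -0.049 to 0.055, Gsk3b from -0.057 to 0.0017, Mtor from -0.0035 to 0.076, Rictor from -0.066 to 0.033 and Tsc2 from -0.0037 to 0.040. In inputs, Sus against Con gave -0.036 to 0.0094 for Akt1, -0.0058 to 0.055 for Rptor and -0.029 to 0.017 for Tsc2, Res against Con gave -0.0047 to 0.052 for Akt2 and -0.045 to 0.0040 for Gsk3b, and Sus against Res gave -0.039 to 0.025 for Mtor and -0.054 to 0.019 for Rptor. In Sirt1-KO against D1 Con, Gsk3a ran from -0.0034 to 0.054, Rictor from -0.039 to 0.072, Rptor from -0.039 to 0.020 and Sirt1 from -0.19 to 0.012. Requiring a fold change over 1.5 as well left 1 member in D1 IP against input, 0 in D2 and 0 in D1 Res against D2 Res. All genes called then fell from 10510 to 6179, from 10705 to 6361, from 2484 to 785 and, for D1 Con against D2 Con, from 1990 to 709; the 1 gene of D1 Res against D1 Con fell to 0, as it did when all genes with at least 1 count were kept, in a model of only these groups and with the replicate block. For Sirt1-KO, 226 genes became 102 with the fold, 378 with all genes, 741 with DESeq2 and 1618 with the replicate block. DESeq2 gave 14 against 3 genes for D1 line against D2 line, 1 against 0 for Res against Con inputs and 3 against 0 for Sus against Con inputs. With a library left out, the genes called ran from 1171 (without D1 Con replicate 2) to 2308 for D1 Con against D2 Con, from 0 to 1 for D1 Res against D1 Con (1 only without D1 Con replicate 3), and from 41 to 1020 for Sirt1-KO, and members called from 0 (without D1 Res replicate 1) to 2 (without D2 Res replicate 1) for D1 Res against D2 Res. For Sirt1-KO the count was 104, 199, 49 and 62 without D1 Con replicate 1, 2, 3 and 4, and 107, 41, 62 and 1020 without Sirt1-KO replicate 1, 3, 4 and 5. Genes at an unadjusted p under 0.05 rose from 300 to 478 and from 236 to 447 when all genes were kept (D1 Res against D1 Con, D2 Sus against D2 Res), from 430 to 690 with the block (D2 Res against D2 Con), from 300 to 488 without D1 Res replicate 3, from 236 to 535 without D2 Res replicate 5, and from 679 to 1286 and from 824 to 1579 without D2 Sus input 3 (Sus against Con and against Res inputs). The replicate block changed no call of a member. Of the other pathway genes named and Sirt1, 21 of 368 alternative values lost their call, those of Mapkap1, Rragd, Ppp2r2b, Prkaa2, Pik3r1 and Rps6kb2 between lines. Mapkap1 and Rragd also lost it with all genes kept (adjusted p = 0.0758 and 0.0649, edgeR) and in a model of only the groups compared (adjusted p = 0.0673 and 0.0523, edgeR). The cause of these shifts was not tested, apart from those that follow from fewer samples or a stricter threshold. With 3 to 5 libraries per group, differences of the sizes inside the intervals given are not excluded.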
